A study of Mus musculus with 20 samples.

Results

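The lipid-associated macrophage genes described here were 10 genes taken by symbol from the 38924 genes of the table: Gpnmb, Trem2, Spp1, Lgals3, Cd9, Cd63, Fabp5, Lpl, Tyrobp and Itgax. They were chosen with their rise on the steatohepatitis diet in view, so their diet effects are given below as a description without a test. Liver RNA of 20 male mice was measured by poly(A) RNA-Seq, with 5 mice per group of the strain C57/BL6 by the labels (C57BL/6J in the study's methods). Mice received either control diet or CDAHFD, a choline-deficient, amino acid-defined high fat chow that causes steatosis, inflammation and fibrosis of the liver, for 12 weeks. Wild type (WT) mice formed the groups NDWT on control diet and HFWT on CDAHFD, TSP-1 null mice the groups NDKO on control diet and HFKO on CDAHFD, and a number after a group name is the mouse number of the labels. Mice were bought at 5 weeks of age and acclimated for 1 week before the diets began. TSP-1, the product of Thbs1, is a secreted glycoprotein that can activate latent TGF-β. The TSP-1 knockout mice carry their allele in all tissues and were bought as a stock of their own, and nothing states that the WT mice were littermates, so a difference between stocks cannot be told apart from the loss of TSP-1.

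Lipid-associated macrophages are a state that monocyte-derived macrophages take up in fatty liver, obese adipose tissue and atherosclerotic plaque. They gather around dying, lipid-laden cells, take up lipid and debris, and express genes for lysosomal work, lipid handling and matrix. TREM2 is the receptor that stands at the centre of this state: it binds lipids and apolipoproteins and signals through the adaptor TYROBP (DAP12), which recruits the kinase SYK. In bulk liver the RNA of a gene comes from every cell type, and fewer cells of a type cannot be told apart from less RNA per cell. Several members have other sources too, such as Spp1 and Cd9 in bile duct cells, so a bulk level is not a count of macrophages.

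Values are FPKM, fragments scaled to gene length and to library size, with libraries of 15641545 to 23276322 assigned fragments. Thbs1 was read first as the targeted gene. It lay at 0.058 to 0.326 FPKM in NDWT and at 0.986 to 1.90 FPKM in the livers labelled NDKO, which did not overlap (log2FC 2.28, limma FDR 1.02e-05). On CDAHFD it lay at 3.46 to 6.10 FPKM in HFWT and 3.05 to 4.40 FPKM in livers labelled HFKO (log2FC -0.39, FDR 0.408). The level on control diet thus went against the label, on CDAHFD no loss of Thbs1 passed the test, gene totals do not show which exons were read, and every genotype effect below is between livers as labelled. HFWT 5 stood apart: 2 genes, Gm26924 and Gm23935, took 5.55% of its fragments against 0.176% to 1.98% in the other libraries. The results below were therefore also computed without this liver, and without each of the others. Hepatocyte RNA dominated all groups, with Alb at 21280 to 29238 FPKM in NDWT.

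All 10 members were higher on CDAHFD than on control diet in both genotypes, and no member's CDAHFD livers overlapped its control livers in either genotype. Among all 14524 genes tested, 50.5% were higher without overlap in WT and 52.7% in TSP-1 null livers as well. The members were chosen for this rise, so nothing is read from these counts. For the other gene lists below, a call required an FDR under 0.05 and an absolute log2FC above 0.58, with log2FC on the log2(FPKM + 0.1) scale, and 44.1% of all tested genes were called higher in WT and 41.9% in TSP-1 null livers. The median log2FC of the members was 4.98 in WT (range 2.08 to 8.85) and 4.58 in TSP-1 null livers (range 2.56 to 8.21), against medians of 0.53 and 0.50 over all tested genes. FPKM shares 1 total among all genes, and median of ratios scaling took those 2 medians to 0.01 and 0.00 and the split of higher and lower calls in WT from 6412 and 671 to 3351 and 2145. Under it the members' medians were 4.44 and 4.06, and under quantile normalization 4.80 and 4.21. Together the members took 0.00832% to 0.0141% of the fragments of a control liver and 0.158% to 0.317% of those of a CDAHFD liver. Trem2 and Itgax passed the low-value filter only through their CDAHFD livers, and the other 8 members would have passed on control livers alone. Most genes named from the other lists for diet were picked for the size of that same effect. Their log2FC and FDR are therefore a description too. Mmp12, Cx3cr1, Itgam, Ms4a7, Atp6v0d2, Lat2 and Card9 had NDWT means under the filter's 0.5 FPKM, so their passing it may rest on their CDAHFD livers. Of these, Atp6v0d2 had an NDKO mean above 0.5 FPKM, given below.

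**Figure D1:**
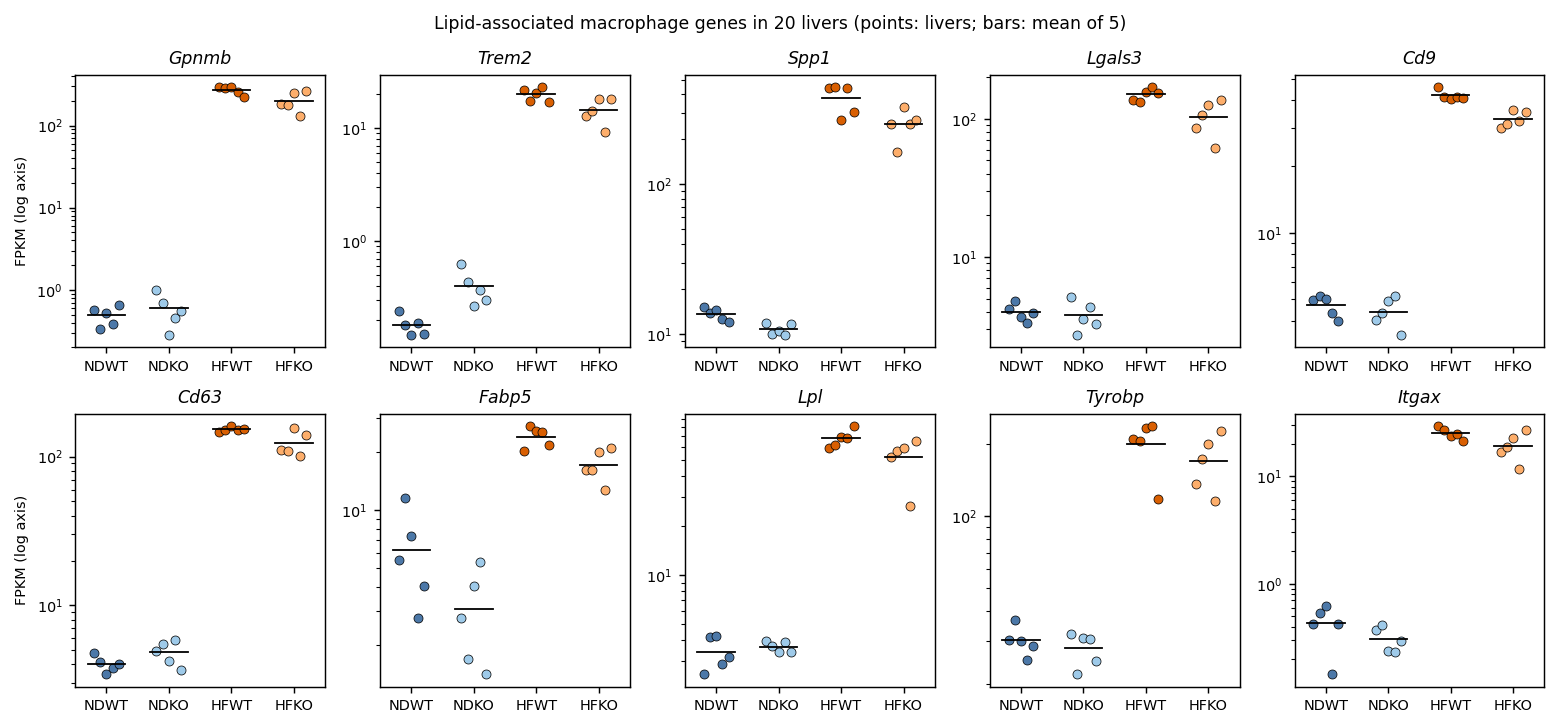
FPKM of the 10 members (log axis) in each of 20 livers; points are livers, bars the mean of 5, ND marks control diet, HF marks CDAHFD, WT wild type and KO TSP-1 null. In every panel all CDAHFD livers lie above all control livers of the same genotype, and only Cd9 has its HFWT livers (40.4 to 45.9 FPKM) wholly above its HFKO livers (29.8 to 36.2 FPKM).

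Gpnmb, Trem2 and Itgax were the 3 least expressed members on control diet and the 3 that rose most in WT. Their promoters are shown because these members went from almost no RNA to a clear level. Each is a 300-base stretch of RefSeq GRCm38.p6 on the gene's strand, from 250 bases before the start site to 50 after it: Gpnmb at chr6:49036268-49036567 (plus), Trem2 at chr17:48346151-48346450 (plus) and Itgax at chr7:128129300-128129599 (plus). Capitals mark a match to the AP-1 motif TGANTCA or to the ETS motif GAGGAA of the PU.1 type on either strand, PU.1 being the factor that defines the myeloid lineage.
Gpnmb promoter: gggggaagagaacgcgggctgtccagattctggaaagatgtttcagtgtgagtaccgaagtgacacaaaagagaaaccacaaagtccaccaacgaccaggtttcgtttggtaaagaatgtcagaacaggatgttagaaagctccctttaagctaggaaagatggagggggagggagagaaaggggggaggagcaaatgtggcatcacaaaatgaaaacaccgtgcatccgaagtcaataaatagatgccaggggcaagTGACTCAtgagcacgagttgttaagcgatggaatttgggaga
Trem2 promoter: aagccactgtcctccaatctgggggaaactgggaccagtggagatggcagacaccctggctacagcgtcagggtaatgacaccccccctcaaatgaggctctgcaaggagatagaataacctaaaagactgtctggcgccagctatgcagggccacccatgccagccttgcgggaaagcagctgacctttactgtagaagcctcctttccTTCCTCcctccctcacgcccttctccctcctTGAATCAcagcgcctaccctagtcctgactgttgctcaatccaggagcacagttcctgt
Itgax promoter: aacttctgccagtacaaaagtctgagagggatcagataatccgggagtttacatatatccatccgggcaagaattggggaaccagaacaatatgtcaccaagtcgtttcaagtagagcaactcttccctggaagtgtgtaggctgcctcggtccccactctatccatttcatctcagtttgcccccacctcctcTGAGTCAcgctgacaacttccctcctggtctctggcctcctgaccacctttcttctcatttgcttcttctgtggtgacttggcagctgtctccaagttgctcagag

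All 3 held the AP-1 letters, TGACTCA at base 8 after the start site in Gpnmb, TGAATCA 9 bases before it in Trem2 and TGAGTCA 56 bases before it in Itgax. Both strands were searched, and 7.81% of the 32851 mouse promoters of this length held this motif. Of 7 members with a promoter in the RefSeq table, these 3 had it and Cd63, Cd9, Lgals3 and Spp1 did not. The ETS letters were found in Cd63, Spp1 and Trem2, beside 28.3% of all promoters. The E-box CACGTG and the M-box TCATGTG, which the lysosomal MiT/TFE factors bind, were in 0 of 7 members, beside 7.15% and 3.77% of all promoters. A match is a description of letters, and whether any factor binds there was not measured.

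Gpnmb (ENSMUSG00000029816.8; GRCm38 chromosome 6, 49036518 to 49058182, plus strand) encodes a transmembrane glycoprotein of lysosomes and phagosomes. Its FPKM was 0.577, 0.331, 0.518, 0.384 and 0.660 in NDWT 1 to 5 and 295, 288, 294, 255 and 220 in HFWT 1 to 5. In NDKO it was 0.995, 0.695, 0.282, 0.461 and 0.547, and in HFKO 182, 179, 250, 131 and 261. The control livers of both genotypes overlapped, as did the CDAHFD livers, and only diet set the groups apart. The control values rest on 20 to 78 fragments a liver and the CDAHFD values on 9797 to 22662. With log2FC of 8.85 (SE 0.23) and 8.21 (SE 0.23), Gpnmb ranked 1st of all tested genes in both genotypes. Its relative Pmel lay at 0.113 to 0.588 FPKM in all 20 livers and was not tested.

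Trem2 (ENSMUSG00000023992.8; chromosome 17, 48346401 to 48354147, plus strand), the lipid receptor, read 0.243, 0.182, 0.148, 0.189 and 0.152 FPKM in NDWT 1 to 5. In NDKO 1 to 5 it read 0.627, 0.436, 0.270, 0.367 and 0.300 FPKM. All 5 NDKO livers thus lay above all 5 NDWT livers, on 13 to 28 fragments a liver in NDWT and 25 to 64 in NDKO. On CDAHFD the order of the genotypes was the other way round, with 21.6, 17.5, 20.5, 23.2 and 17.0 FPKM in HFWT and 12.8, 14.1, 18.0, 9.32 and 18.0 FPKM in HFKO, and these groups overlapped. The diet effect was a log2FC of 6.15 (SE 0.18) in WT and 4.87 (SE 0.18) in TSP-1 null livers, which ranked 8th and 23rd of all tested genes.

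Tyrobp (ENSMUSG00000030579.9; chromosome 7, 30413788 to 30417577, plus strand), the adaptor that carries the TREM2 signal and that of many other myeloid and NK cell receptors, was the most abundant member on control diet, at 25.1 to 36.9 FPKM in NDWT and 21.9 to 32.0 in NDKO. On CDAHFD it read 210, 205, 232, 237 and 118 FPKM in HFWT 1 to 5 and 136, 172, 200, 115 and 225 FPKM in HFKO 1 to 5. HFWT 5 lay well below the other HFWT livers, and it is the liver with the high share of Gm26924 and Gm23935. Tyrobp rose 6.46-fold in WT (log2FC 2.69, SE 0.19) and 5.91-fold in TSP-1 null livers (log2FC 2.56, SE 0.19). Trem2 thus lay far below its adaptor on control diet and rose by more. The mean per-length level of Trem2 was the lowest of the 10 members in both CDAHFD groups.

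The downstream genes were higher too. All 12 TREM2 and TYROBP signalling genes were called higher in both genotypes, with medians of 2.23 and 2.06, and 10 of 12 were called higher in each with median of ratios scaling. Lat2, a membrane adaptor, went from 0.488 in NDWT to 14.6 FPKM in HFWT (log2FC 4.67, SE 0.23, FDR 2.85e-12), and Card9, which links SYK to NF-κB, from 0.429 to 3.05 FPKM (log2FC 2.63, SE 0.25, FDR 1.70e-08). Of 9 tested receptors that also use TYROBP, 8 were called higher in each genotype (5 higher and 1 lower in WT under quantile normalization), led in WT by Cd300lb (log2FC 3.98, SE 0.25, FDR 6.06e-11) and Clec5a (log2FC 3.20, SE 0.24, FDR 7.25e-10). These lists hold genes of many leukocytes, and the general macrophage list below rose with them.

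Itgax (ENSMUSG00000030789.8; chromosome 7, 128129547 to 128150656, plus strand) encodes CD11c, an integrin chain of dendritic cells and activated macrophages that pairs with the β2 chain. It read 0.425, 0.533, 0.625, 0.144 and 0.421 FPKM in NDWT and 29.1, 26.9, 23.8, 24.5 and 21.04 FPKM in HFWT. In NDKO it read 0.371, 0.413, 0.238, 0.232 and 0.293 FPKM, and in HFKO 16.8, 18.7, 22.5, 11.6 and 26.6. The rise was a log2FC of 5.65 (SE 0.24) in WT and 5.53 (SE 0.24) in TSP-1 null livers, from 10 to 45 fragments in a control liver to at least 927 in a CDAHFD liver. All 3 tested other leukocyte integrin chains were called higher in both genotypes, Itgam from 0.257 to 7.91 FPKM (log2FC 4.49, SE 0.19, FDR 6.63e-13) and the partner chain Itgb2 from 4.91 in NDWT to 62.5 FPKM in HFWT (log2FC 3.65, SE 0.21, FDR 2.24e-11). Dendritic cell markers, which Itgax also marks, were called higher for 10 of 11 genes in each genotype, with medians of 1.88 and 1.91. Under quantile normalization 8 of 11 were called higher in WT and 5 in TSP-1 null livers, with medians of 1.01 and 0.49. Their summed level was 76.5 to 232 FPKM in NDWT and 316 to 679 FPKM in HFWT, and their part in the Itgax result was not tested.

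Spp1 (ENSMUSG00000029304.8; chromosome 5, 104435118 to 104441050, plus strand) encodes osteopontin, a secreted matrix protein and cytokine that integrins and CD44 bind. It had the highest mean of the members on CDAHFD, at 439, 446, 268, 437 and 302 FPKM in HFWT 1 to 5 and 251, 164, 326, 254 and 267 FPKM in HFKO 1 to 5. On control diet it lay at 12.0 to 15.2 FPKM in NDWT and at 9.83 to 11.9 FPKM in NDKO, which did not overlap. The rise was 27.1-fold in WT (log2FC 4.76, SE 0.16) and 22.7-fold in TSP-1 null livers (log2FC 4.50, SE 0.16). Of 9 osteopontin receptors 7 were called higher in each genotype, or 5 in WT and 4 in TSP-1 null livers under quantile normalization, including Itga8 (0.865 to 6.05 FPKM, WT log2FC 2.65, SE 0.19, FDR 3.31e-10) and Cd44 (2.39 to 9.60 FPKM, log2FC 1.98, SE 0.18, FDR 8.33e-09).

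Lgals3 (ENSMUSG00000050335.10; chromosome 14, 47367751 to 47386160, plus strand) encodes galectin-3, a sugar-binding protein of phagocytes that is recruited to damaged lysosomes. It read 3.36 to 4.81 FPKM in NDWT, 2.72 to 5.14 in NDKO, 133 to 170 in HFWT and 62.0 to 137 in HFKO (log2FC 5.20 and 4.70, SE 0.18 each). Of the 6 other tested galectin genes 3 were called higher and 0 lower in each genotype, against 2 higher and 2 lower in WT and 2 higher and 3 lower in TSP-1 null livers with median of ratios scaling, which turned their medians from 0.37 and 0.39 to -0.18 and -0.13. Lgals1 was called, at 15.1 FPKM in NDWT and 123 in HFWT (log2FC 3.04, SE 0.19, FDR 6.19e-11).

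Cd63 (ENSMUSG00000025351.7; chromosome 10, 128908919 to 128912816, plus strand) and Cd9 (ENSMUSG00000030342.8; chromosome 6, 125460266 to 125494791, minus strand) encode tetraspanins, CD63 of late endosomes, lysosomes and exosomes and CD9 mainly of the plasma membrane. Cd63 went from 3.43 to 4.75 FPKM in NDWT to 147 to 160 FPKM in HFWT, the tightest CDAHFD group of any member, with a coefficient of variation of 3.16%. In HFKO it spread over 101 to 155 FPKM, a coefficient of variation of 18.7%, from 3.69 to 5.83 FPKM in NDKO. Its log2FC was 5.22 and 4.65 (SE 0.12 each). Cd9 rose less, from 3.97 to 5.16 FPKM in NDWT to 40.4 to 45.9 in HFWT and from 3.44 to 5.17 in NDKO to 29.8 to 36.2 in HFKO (log2FC 3.14 and 2.90, SE 0.10 each). Of 12 other tetraspanins 8 were called higher in WT and 10 in TSP-1 null livers, with medians of 0.97 and 1.02, and 0 were called lower. With median of ratios scaling 4 were called higher and 2 lower in WT, and 5 higher and 1 lower in TSP-1 null livers.

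Lpl (ENSMUSG00000015568.9; chromosome 8, 68880491 to 68907448, plus strand) encodes lipoprotein lipase, which frees fatty acids from the triglyceride of lipoproteins and is made by macrophages, fat and muscle but hardly by adult hepatocytes. It read 2.48 to 4.25 FPKM in NDWT, 3.38 to 3.98 in NDKO, 59.8 to 80.7 in HFWT and 26.2 to 65.8 in HFKO, where HFKO 4 lay lowest and the next liver was at 52.1. The log2FC was 4.31 and 3.73 (SE 0.19 each). Genes that carry or regulate the enzyme gave another picture. Of 11 such genes 0 were called higher and 5 lower in WT, and 2 higher and 4 lower in TSP-1 null livers. Among them Angptl4, which inactivates lipoprotein lipase, fell from 69.5 in NDWT to 38.1 FPKM in HFWT (log2FC -0.86, SE 0.14, FDR 1.51e-05), and Gpihbp1, which carries the enzyme across capillary endothelium, was at 19.2 and 24.9 FPKM (log2FC 0.37, SE 0.12, FDR 0.0112, under the fold threshold), a direction that turned with median of ratios scaling (-0.17, FDR 0.189). That scaling gave 0 higher and 8 lower of the 11 genes in WT. Of 7 adipocyte markers 3 passed the filter, 1 was called higher and 1 lower in WT, and the defining markers Lep and Adipoq had 0 and at most 3 fragments in each of the 20 livers.

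Fabp5 (ENSMUSG00000027533.10; chromosome 3, 10012548 to 10016607, plus strand) encodes a cytosolic carrier of fatty acids found in macrophages and epidermis. It was the member with the smallest rise in WT and the widest spread on control diet, at 5.53, 11.6, 7.36, 2.76 and 4.03 FPKM in NDWT 1 to 5 and 2.76, 1.70, 4.03, 5.42 and 1.41 FPKM in NDKO 1 to 5. On CDAHFD it lay at 20.2 to 27.2 FPKM in HFWT and 12.7 to 20.9 in HFKO (log2FC 2.08 and 2.59, SE 0.34 each). It was the only member with a larger fitted log2FC in TSP-1 null than in WT livers, and that difference did not pass the test below. As a fold of mean FPKM, Itgax also rose more in TSP-1 null livers (62.2-fold against 58.4-fold). Among its relatives Fabp1, the carrier of hepatocytes, stood at 5806 to 7177 FPKM in NDWT, so liver FABP RNA was almost wholly Fabp1. Of 5 other tested family genes 3 were called higher and 2 lower in WT, and 3 higher and 0 lower in TSP-1 null livers, where median of ratios scaling gave 2 lower.

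**Figure D2:**
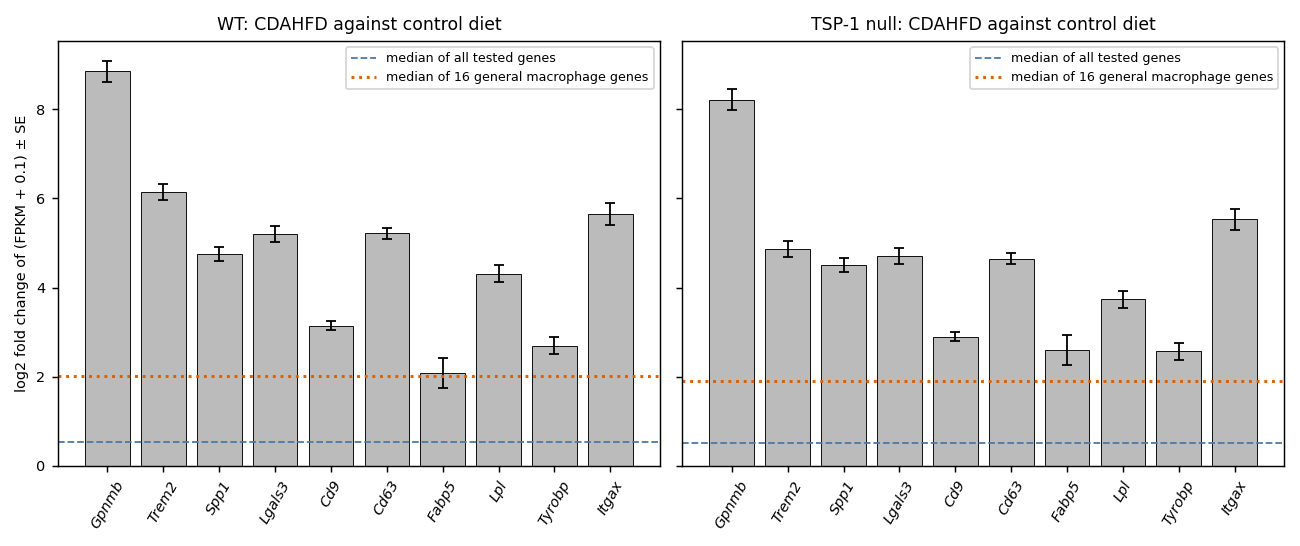
Log2 fold change of (FPKM + 0.1), CDAHFD against control diet, for each member in WT (left) and TSP-1 null livers (right); bars are fitted effects, error bars their SE, with 5 livers per group. All bars stand above the median of 16 general macrophage genes (dotted, 2.02 and 1.91) and the median of all tested genes (dashed, 0.53 and 0.50), and Gpnmb stands highest at 8.85 and 8.21. The members were chosen for this rise, so nothing is read from their standing.

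The order of levels changed between the diets. On control diet Tyrobp came first and Spp1 second in both genotypes, each without overlap with the next, while Gpnmb, Itgax and Trem2 came last with overlapping ranges between neighbours, apart from every higher member. On CDAHFD the order of means was Spp1, Gpnmb, Tyrobp, Cd63, Lgals3, Lpl, Cd9, Itgax, Fabp5 and Trem2 in both genotypes. The first 5 of these overlapped their neighbours in HFWT (118 to 446 FPKM), and the last 3 overlapped as well (17.0 to 29.1 FPKM). Gpnmb moved from 8th to 2nd place. Levels across genes rest on the gene lengths of the table, from 564 bases for Tyrobp to 6810 for Lpl.

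RNA of macrophages as a whole was also higher on CDAHFD. All 16 general macrophage genes were called higher in both genotypes with medians of 2.02 and 1.91. All 10 members stood above these medians in both, but they were chosen for this rise, so nothing is read from that. The summed level of the list was 238 to 315 FPKM in NDWT, 230 to 368 in NDKO, 1411 to 1942 in HFWT and 939 to 2118 in HFKO. Itgam and Ms4a7 led the list (Ms4a7 mean 0.0862 FPKM in NDWT). Recruited monocyte genes were called higher for 9 of 10, with medians of 2.44 and 2.61, led by Cx3cr1 (0.241 to 10.3 FPKM, WT log2FC 4.94, SE 0.24, FDR 2.06e-12) and S100a4 (0.515 to 17.6 FPKM, log2FC 4.91, SE 0.25, FDR 3.41e-12). Under quantile normalization 9 were again called higher, with medians of 1.38 and 1.63. The summed level of the monocyte list overlapped between the diets, at 249 to 294 FPKM in NDWT, 226 to 301 in NDKO, 228 to 328 in HFWT and 252 to 349 in HFKO. Genes of resident Kupffer cells gave a mixed pattern: 0 of 10 were called higher and 3 lower in WT, and 2 higher and 3 lower in TSP-1 null livers. Their medians were -0.38 and 0.07, and 5 were lower in WT with either other scaling. Their summed level overlapped between the diets, at 282 to 383 FPKM in NDWT, 240 to 358 in NDKO, 260 to 392 in HFWT and 280 to 474 in HFKO. The 3 called lower, the same in both genotypes, were Cd163, Timd4 and Clec4f. Cd163, a haemoglobin scavenger receptor, fell from 6.75 in NDWT to 0.152 FPKM in HFWT (log2FC -4.79, SE 0.21, FDR 8.38e-13), Timd4, a receptor for dying cells, from 5.19 to 0.367 (log2FC -3.52, SE 0.32, FDR 1.09e-08), and Clec4f, a lectin of Kupffer cells, from 67.5 to 29.7 (log2FC -1.22, SE 0.18, FDR 6.96e-06).

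The wider set of lipid-associated genes was higher for the most part. Of 30 such genes 23 were called higher and 1 lower in WT, and 23 higher and 0 lower in TSP-1 null livers, with medians of 1.73 and 1.67. Mmp12, macrophage elastase, went from 0.129 in NDWT to 51.0 FPKM in HFWT (log2FC 7.85, SE 0.19, FDR 1.87e-16), and Atp6v0d2, a subunit of the lysosomal proton pump, from 0.462 to 20.4 FPKM (log2FC 5.30, SE 0.27, FDR 4.73e-12). Many of the 30 are also hepatocyte genes, for example Apoe at 11463 to 15653 FPKM in NDWT. All 4 MiT/TFE factors were called higher in both genotypes, by a median of 0.96 and 0.81, with Mitf from 0.879 to 2.28 FPKM (log2FC 1.30, SE 0.16, FDR 7.83e-07) and Tfec from 1.33 in NDWT to 2.82 FPKM in HFWT (log2FC 1.02, SE 0.21, FDR 0.000233). These calls depended on the scaling, with 1 of 4 called in each genotype by median of ratios and 0 of 4 by quantile normalization.

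Markers of other cells that can make some members moved as well. All 7 tested cholangiocyte markers were called higher in both genotypes, with medians of 3.64 and 3.09 and a summed level of 7.03 to 9.87 FPKM in NDWT, 8.83 to 10.8 in NDKO, 39.1 to 73.2 in HFWT and 32.8 to 55.0 in HFKO. All 10 stellate cell and myofibroblast markers were called higher (medians 2.26 and 2.38), as were all 5 tested neutrophil markers (2.77 and 2.53) and 7 of 9 NK and T cell markers (2.03 and 1.67). The NK and T cell count depended on the scaling, with 6 of 9 called in WT and 1 of 9 in TSP-1 null livers under quantile normalization (medians 0.96 and 0.59). Epcam, a cholangiocyte marker, went from 0.531 in NDWT to 15.0 FPKM in HFWT (log2FC 4.54, SE 0.27, FDR 3.49e-11). Endothelial genes gave 2 of 8 higher in WT and 3 in TSP-1 null livers, and with median of ratios scaling 0 of 8 higher and 3 lower in WT. Hepatocyte genes gave 0 of 9 higher and 3 lower in WT and 4 in TSP-1 null livers, against 9 and 7 lower with median of ratios scaling and 0 and 1 lower under quantile normalization. The part of these cells in the levels of Spp1, Cd9, Lgals3, Tyrobp and Itgax was not tested.

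**Figure D3:**
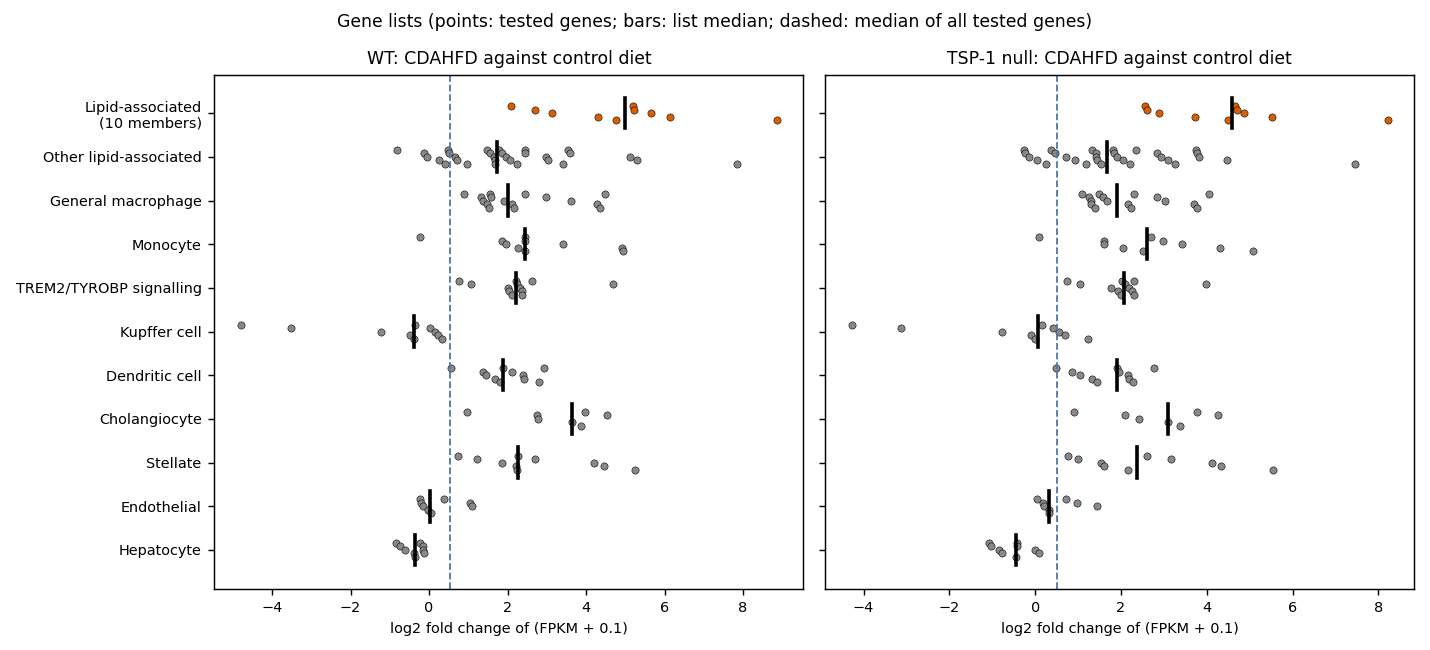
Log2 fold change of (FPKM + 0.1) on CDAHFD against control diet, in WT (left) and TSP-1 null livers (right), for the tested genes of 11 lists; points are genes, black bars list medians, and the dashed line is the median of all tested genes. The members (orange), chosen for this rise, have the highest median, 4.98 and 4.58, above cholangiocyte (3.64 and 3.09), monocyte (2.44 and 2.61) and general macrophage genes (2.02 and 1.91), while Kupffer cell genes scatter from -4.79 to 0.34 in WT.

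Whether the members differed between livers labelled TSP-1 null and WT was asked on each diet. On CDAHFD no member passed the threshold: 0 of 10 were called, beside 0.496% of all tested genes. All 10 members had a lower mean in HFKO than in HFWT, beside 70.6% of all tested genes, and the median log2FC was -0.46 against -0.10 over all genes and -0.28 over the 16 macrophage genes. Medians of lists of other cells, in which no gene was called, also lay below 0, at -0.57 for NK and T cell, -0.43 for cholangiocyte and -0.32 for dendritic cell markers, while hepatocyte markers had a median of 0.36, and the part of these cells in the members' values was not tested. At an unadjusted p under 0.05, 6 members were lower, beside 14.2% of all tested genes. Only Cd9 had groups that did not overlap, beside 4.13% of genes lower without overlap.

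The members nearest to the threshold on CDAHFD were Spp1, Cd9 and Lgals3. Spp1 was 252 ± 58.0 FPKM in HFKO against 379 ± 86.1 in HFWT (SD, n = 5; log2FC -0.59, SE 0.16, limma FDR 0.0761). Cd9 was 33.0 ± 2.71 against 41.9 ± 2.21 FPKM (log2FC -0.35, SE 0.10, FDR 0.0868), and Lgals3 was 103 ± 29.99 against 150 ± 15.1 FPKM (log2FC -0.59, SE 0.18, FDR 0.113). The other 7 lay between -0.49 and -0.24 with FDR of 0.178 to 0.536. The 95% intervals reached from -0.88 to -0.11 for Trem2, from -0.95 to 0.02 for Gpnmb and from -0.94 to 0.08 for Itgax, and the latter pair included 0. Spp1 passed the threshold when HFWT 3, its lowest HFWT liver, was left out (log2FC -0.70, FDR 0.0418).

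The coefficient of variation was larger in HFKO than in HFWT for all 10 members, from 8.22% for Cd9 to 29.7% for Itgax in HFKO. The difference was slight for Spp1 (23.0% against 22.7%) and Tyrobp (26.5% against 24.0%). The share of all tested genes with a larger spread in HFKO is not given here. The summed general macrophage genes also spread more in HFKO (SD 448 against 228 FPKM). HFKO 4 was lowest in its group for 8 of 10 members and HFKO 5 highest for 7. The general macrophage genes, as a mean of log2(FPKM + 0.1), were also lowest in HFKO 4 (4.47) and highest in HFKO 5 (5.76) of all 10 CDAHFD livers, against 4.95 to 5.41 in HFWT. HFWT 5 was lowest in its group for Gpnmb, Trem2, Tyrobp and Itgax and for the macrophage genes (4.95), yet highest for Lpl. How the members related to this macrophage level is given below.

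**Figure D4:**
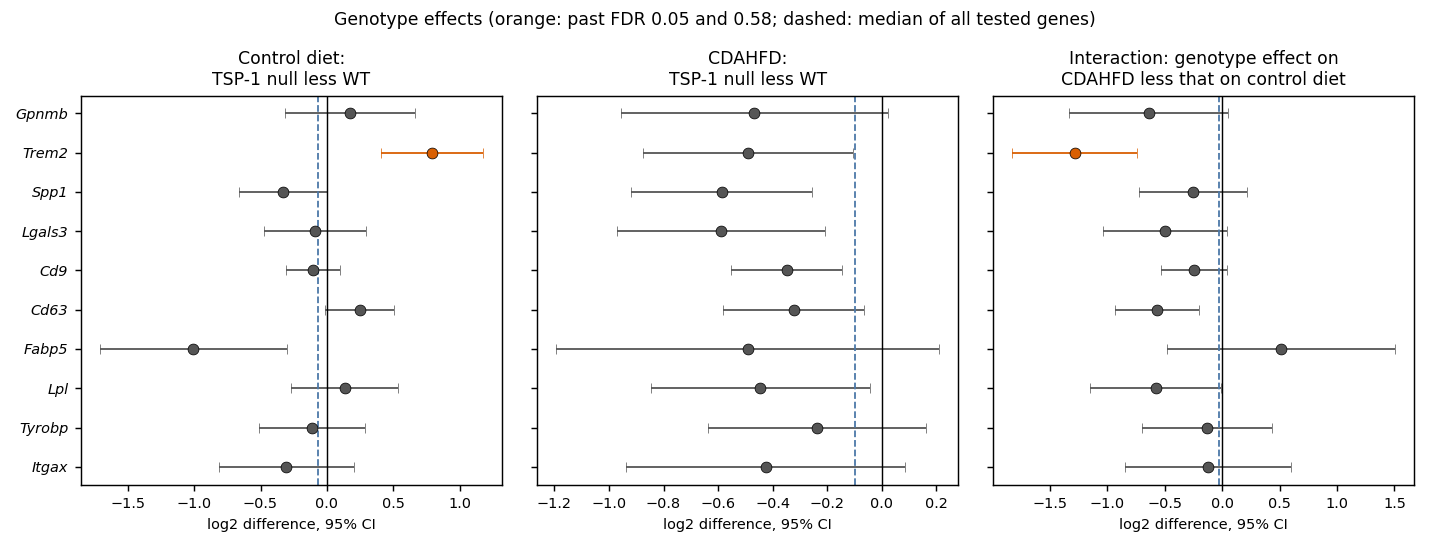
Log2 difference of each member between genotypes on control diet (left) and CDAHFD (middle), and the difference between these (right); points are fitted values, bars 95% confidence intervals, orange points those past FDR 0.05 and an absolute value of 0.58, and the dashed line is the median of all tested genes. All 10 points lie below 0 on CDAHFD, none of them orange, and Trem2 is the only orange point on control diet (0.79) and in the interaction (-1.28).

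On control diet 1 of 10 members was called, beside 4.77% of all tested genes. Trem2 was 0.400 ± 0.142 FPKM in NDKO and 0.183 ± 0.0382 in NDWT (SD, n = 5; log2FC 0.79, SE 0.18, limma FDR 0.00812), and all 5 NDKO livers lay above all 5 NDWT livers. Both levels are low, and Trem2 passed the low-value filter only through its CDAHFD livers. With a pseudocount of 1 in place of 0.1 the difference was 0.24 and was not called (FDR 0.276). Fabp5 was 3.07 ± 1.67 FPKM in NDKO and 6.25 ± 3.44 in NDWT (log2FC -1.01, SE 0.34, FDR 0.0539). It passed the threshold when NDWT 4, NDKO 3 or NDKO 4 was left out (FDR 0.0155, 0.0446 and 0.0201) or when genes had to exceed 1 FPKM (FDR 0.0487). Spp1 did not overlap, with NDKO lower (10.8 ± 0.956 against 13.6 ± 1.27 FPKM), but was not called (log2FC -0.33, SE 0.16, FDR 0.185), beside 9.03% of all genes without overlap. The other 7 members lay between -0.30 and 0.25 with FDR of 0.204 to 0.796, and their groups overlapped.

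The adaptor of Trem2 was not called on control diet. Tyrobp was 28.1 ± 4.46 FPKM in NDKO and 30.3 ± 4.26 in NDWT (log2FC -0.11, SE 0.19, FDR 0.759), 0 of 12 signalling genes were called, and 0 of 16 general macrophage genes were called (median log2FC -0.06). Sirpb1b, another TYROBP partner, was lower in NDKO (0.0712 against 0.230 FPKM, FDR 0.00924). Both means are under the filter's 0.5 FPKM, so its passing the filter may rest on its CDAHFD livers. Under quantile normalization 0 of the 9 tested TYROBP partners were called here. Among other genes of the lipid-associated state 1 was called higher and 3 lower. This split depended on the scaling, with 2 higher and 2 lower by median of ratios and 1 higher and 2 lower under quantile normalization. The values that follow are from the main fit. Atp6v0d2 was higher (1.12 against 0.462 FPKM, log2FC 1.20, SE 0.27, FDR 0.00703), and Cd36, a fatty acid transporter and a receptor of TSP-1 (12.0 against 28.0 FPKM, log2FC -1.21, SE 0.27, FDR 0.00619), Lgals1 (7.17 against 15.1 FPKM, log2FC -1.09, SE 0.19, FDR 0.00137) and Anxa2 (2.30 against 3.65 FPKM, log2FC -0.61, SE 0.17, FDR 0.0216) were lower.

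Among the genes tied to single members, the osteopontin receptor Cd44 was lower in NDKO (1.06 against 2.39 FPKM, log2FC -1.11, SE 0.18, FDR 0.000648) and Itgb3 higher (1.58 against 0.929 FPKM, log2FC 0.69, SE 0.17, FDR 0.0121). Angptl8, which inhibits lipoprotein lipase after feeding, was lower (6.70 against 17.5 FPKM, log2FC -1.45, SE 0.34, FDR 0.00799), and so was the Kupffer list gene Id3 (15.1 against 40.3 FPKM, log2FC -1.36, SE 0.26, FDR 0.00213). On CDAHFD no gene of the 23 lists was called between genotypes.

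The interaction asks whether the genotype effect differed between the diets. It was called for 1 of 10 members, beside 0.647% of all tested genes. That member was Trem2, whose genotype effect went from 0.79 on control diet to -0.49 on CDAHFD (interaction -1.28, SE 0.26, 95% interval -1.83 to -0.74, limma FDR 0.0258). The control levels of Trem2 are low, and it passed the low-value filter only through its CDAHFD livers. With a pseudocount of 1 the interaction was -0.70 and not called (FDR 0.0722). The call was also lost, at FDR of 0.0504 to 0.0569, when NDWT 3, NDKO 4, HFWT 4, HFKO 1 or HFKO 2 was left out, with the value between -1.30 and -1.23, and without the filter on low values (FDR 0.0856). The interaction of Cd63 was -0.57 (SE 0.17, FDR 0.121), of Gpnmb -0.64 (SE 0.33, FDR 0.375) and of Lpl -0.58 (SE 0.27, FDR 0.319), and Fabp5 alone was positive at 0.51 (SE 0.47, FDR 0.664). The interaction of Itgax was -0.12 (SE 0.35, FDR 0.914) and turned positive without NDWT 4 or HFKO 4. A negative sign was found in 9 of 10 members, beside 54.7% of all genes.

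How far the members followed the macrophage level was examined over the 10 CDAHFD livers, since the diets form separate clusters. Itgax (Pearson r 0.88, Spearman rho 0.83, permutation p 0.00052, adjusted p 0.00345), Tyrobp (0.85 and 0.90, p 0.00069, adjusted p 0.00345), Gpnmb (0.84 and 0.85, p 0.00188, adjusted p 0.00627) and Trem2 (0.81 and 0.85, p 0.00442, adjusted p 0.0111) followed it most closely. Lgals3, Fabp5, Cd63 and Lpl followed at r of 0.77, 0.70, 0.67 and 0.67 (adjusted p 0.0154, 0.0378, 0.0462 and 0.0462). Cd9 (r 0.55, rho 0.50, adjusted p 0.113) and Spp1 (r 0.32, rho 0.42, adjusted p 0.372) did not pass the test. Over all tested genes the median r was 0.26, and 2.29% had a higher r than Itgax and 44.3% a higher r than Spp1. Tests were two-sided with 100000 permutations and Benjamini-Hochberg adjustment over 10 relations.

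By Spearman's rho 4 of these relations passed after adjustment, Tyrobp (0.0083), Gpnmb and Trem2 (0.00953 each) and Itgax (0.0116). Without HFKO 4 and HFKO 5, the livers farthest from the median macrophage level, r was 0.74 to 0.89 for Itgax, Tyrobp, Gpnmb, Trem2 and Lgals3, rose to 0.79 for Cd9 and fell to 0.34 for Lpl, so the relation of Lpl rests on those livers. With each genotype's mean taken off, r stayed at 0.83 to 0.88 for Itgax, Gpnmb, Tyrobp and Trem2 and was 0.11 for Spp1. The livers share library depth and the scale of FPKM, and within a genotype only 5 livers were measured.

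**Figure D5:**
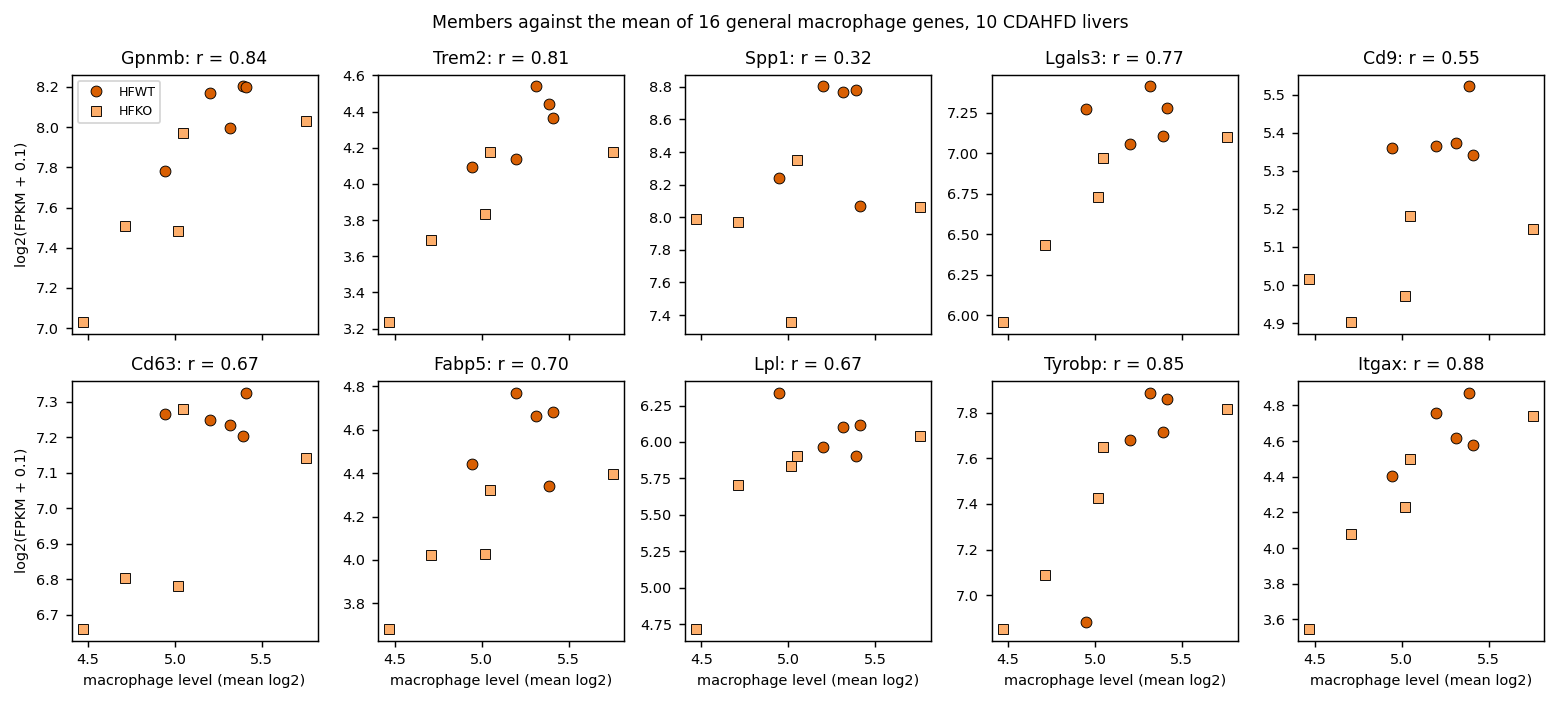
Log2(FPKM + 0.1) of each member (vertical) against the mean log2(FPKM + 0.1) of 16 general macrophage genes (horizontal) in 10 CDAHFD livers; circles are HFWT and squares HFKO, and r is Pearson's. Itgax, Tyrobp, Gpnmb and Trem2 climb with the macrophage level from HFKO 4 (leftmost, 4.47), while Spp1 shows no clear slope (r 0.32).

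The members were also compared with the whole transcriptome over these 10 livers, with each genotype's mean taken off, as a description. The genes most like Trem2 were Capg (r 0.97), an actin-capping protein of macrophages, Adam8 (0.96), a leukocyte metalloprotease, Amz1 (0.96), 5430435G22Rik (0.96) and Pkm (0.96), a glycolytic enzyme. The genes most like Gpnmb were Psap (0.97), the precursor of lysosomal saposins, Slamf7 (0.97), Slc37a2 (0.97), Glipr1 (0.96) and Ampd3 (0.96). Capg and Psap are also on the list of other lipid-associated genes. Among the members Lgals3 was most like Trem2 (r 0.90) and Itgax most like Gpnmb (r 0.95, 9th of all genes), and Spp1 was least like either (0.26 and 0.34). Correlations over 10 livers carry a wide error and were not tested.

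Some members share sequence with other genes. In GENCODE M21, Cd63 shared 519 stretches of 31 bases with a pseudogene copy, Itgax 512 with its neighbour Itgad and Fabp5 260 with the pseudogene Gm6166, and those genes held at most 72, 13 and 15 fragments in any liver. Spp1 shared 250 with Gm42793, which has no value here. Cd9 overlaps an antisense RNA, Gm26728, that had at most 2 fragments. How reads that fit several places were treated is not given in the sources used here, so these members' values carry that uncertainty.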

How the data were processed

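Liver RNA was processed by the authors with QuickRNASeq: per the labels' processing notes STAR 2.5.2 and featureCounts of Subread 1.5.1. These notes name a human build, but the coordinates are those of mouse GRCm38, since 99.8% of the 37607 genes shared with GENCODE M21 overlap their entry there. The authors deposited FPKM to 3 decimals, without further scaling between libraries. The labels place the tissue in the right medial lobe and the paper in the right lateral lobe. FPKM times gene length and library size gave whole fragments (100% of checked values within rounding), and 3 fragments on a gene of 1 kb correspond to 0.129 to 0.192 FPKM. No library was a copy of another (chi-square per degree of freedom at least 13.0 over 40 pairs within groups). Groups and mouse numbers follow the sample titles.

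Differential expression was tested in R 4.3.3 with limma 3.58.1 (eBayes with trend, 20 libraries in 1 fit with 4 group means) on log2(FPKM + 0.1), for 14524 genes above 0.5 FPKM in at least 5 libraries, two-sided, with Benjamini-Hochberg FDR under 0.05 over all tested genes and absolute log2FC above 0.58. The script was tested on simulated data. The 10 members and the 23 gene lists (222 symbols, 4 found by identifier) were chosen with earlier results of these data known, so a list's counts are a description and no set test was run. Genes named from a list are its 2 called genes with the largest log2FC in WT and those called for genotype or interaction, at most 6, and 1 gene this rule selects is not reported here. Gm26924, Gm23935, Clec4f, Gpihbp1, Apoe, Alb, Lep, Adipoq and Pmel were added after their values were seen. Correlations and figures used Python 3.11.15, scipy 1.17.1 and matplotlib 3.10.9. Promoters came from RefSeq GRCm38.p6. Alternatives were pseudocounts of 0.01 and 1, other filters, median of ratios and quantile scaling, only the groups compared, eBayes without trend or robust, no fold threshold, a replicate block and each of 20 libraries left out. Counting limits cover counting error only, since molecules carry no identifiers.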

Additional observations from a re-analysis of the deposited data

Results flagged for a closer look

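Of 40 groups of a member, 2 held a liver that stood apart from the other 4, and chance sets apart about 1 in 20 such groups. Tyrobp was at 117.9 FPKM in HFWT 5, with the other HFWT livers at 205 to 236.6 (gap over range 0.734). This is also the liver with 5.55% of its fragments on Gm26924 and Gm23935. Without it the genotype effect of Tyrobp on CDAHFD was -0.42 in place of -0.24 and was not called. Cd9 was at 45.85 FPKM in HFWT 1, with the other HFWT livers at 40.42 to 41.33 (gap over range 0.834).

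The genotype effect on Trem2 was called different between the diets, with an interaction of -1.281 on the log2 scale by limma. This call rests on control livers with 13 to 64 Trem2 fragments, and Trem2 passed the low-value filter only through its CDAHFD livers. It was lost without that filter, with a pseudocount of 1, and without NDWT 3, NDKO 4, HFWT 4, HFKO 1 or HFKO 2.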

How the results depend on the processing

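The number of members called for genotype on control diet (1) was 0 with a pseudocount of 1, 2 with FPKM above 1 in at least 5 libraries, and 1 to 2 when single livers were left out. On CDAHFD (0) it was 0 to 1 when single livers were left out, 1 without HFWT 3. The interaction count (1) was 0 with a pseudocount of 1 and with no filter, and 0 to 1 when single livers were left out. The number of members related to the macrophage level (8) was 5 with median of ratios scaling and 5 without the 2 farthest livers. The cause of these changes was not tested. Uncalled signs turned with a liver left out for Gpnmb on control diet (-0.0125 to 0.367; negative without NDKO 1), Lgals3 on control diet (-0.206 to 0.0169; positive without NDKO 2), the Tyrobp interaction (-0.308 to 0.00061; positive without HFKO 4) and the Itgax interaction (-0.256 to 0.136; positive without NDWT 4 and, at 0.047, without HFKO 4). For single members, 4 genotype or interaction calls were gained and 5 lost with a liver left out, and 1 gained and 3 lost under the other settings.

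Mouse numbers did not pair the livers: 0 of 20 same-number pairs correlated over 0.1 (-0.133 to 0.0807) and 4 livers correlated best with their own number. With a replicate block 1, 0 and 1 members were called for genotype on control diet, genotype on CDAHFD and interaction, with Trem2 at FDR 0.0144 on control diet and 0.0424 for the interaction.

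Depth limits the control levels of Trem2, Itgax and Gpnmb, which rest on 10 to 78 fragments a liver. With 5 mice per group, a p that misses the threshold does not show that genotypes were alike.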

Other observations

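A relative of Fabp5 was called between genotypes on control diet, where Fabp5 itself was not. Fabp1, the main fatty acid carrier of hepatocytes, was 3513 ± 1046 FPKM in NDKO and 6597 ± 564 in NDWT (SD, n = 5; limma log2FC -0.96, SE 0.17, FDR 0.00128). On CDAHFD it was 2747 ± 264 FPKM in HFKO and 2398 ± 462 in HFWT, and its interaction was 1.17 (SE 0.24, FDR 0.0257), opposite in sign to that of Trem2.

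Some markers of other cells also differed on control diet. The urea cycle enzyme Cps1 was 1119 ± 228 FPKM in NDKO and 539 ± 195 in NDWT (log2FC 1.10, SE 0.18, FDR 0.000949), and Pck1, of gluconeogenesis, was 1607 ± 63.4 and 950 ± 308 FPKM (log2FC 0.82, SE 0.19, FDR 0.00832). Of 9 hepatocyte markers 2 were called higher here, against 4 with median of ratios scaling and 1 under quantile normalization. Acta2, smooth muscle actin, was 0.300 ± 0.217 and 0.679 ± 0.0408 FPKM (log2FC -1.13, SE 0.29, FDR 0.0155).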
